A study of Mus musculus with 16 samples.

Results

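Chemokines are small secreted proteins that call white blood cells to a tissue, and epithelial cells of the kidney are known to make several of them when they are injured. The 10 genes described here are the chemokine genes Cxcl1, Cxcl2, Cxcl10, Cxcl12, Ccl2, Ccl7 and Ccl20, the cytokine genes Csf1 and Lif, and Il1rl1, which encodes the receptor for the cytokine IL-33. They were read by symbol, as 10 of the 55367 gene symbols counted in each library. Of the 10, 9 passed the filter on low counts and were among the 19509 genes tested, and Cxcl12 did not pass. Cxcl2 and Il1rl1 were chosen because they were lower with sulforaphane (SFN) than with the solvent DMSO in unstressed cells. The SFN contrast in unstressed cells is therefore given for every member as a description with no test, and so is every value of Cxcl2 and Il1rl1 that uses those libraries.

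The libraries come from mIMCD3 cells, a mouse epithelial line of inner medullary collecting duct origin, and the 16 of them form 8 groups of 2. WT cells received DMSO or 10 μM SFN for 5 h, and cells of each pretreatment were taken from isosmotic medium or from medium of 600 mOsm, the hyperosmotic stress, in which they had spent 1 h or 6 h. Nrf2-/- cells, all of them given SFN, were sampled in isosmotic medium and after 1 h of stress. The Nrf2-/- line was made by lentiviral delivery of Cas9 and a guide RNA followed by selection with blasticidin and puromycin. Whether it is a single clone is not given in the sources used here, and Nrf2-/- cells without SFN were not analysed here, so that loss of Nrf2 and any other difference between the lines cannot be told apart.

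Cxcl1 and Cxcl2 attract neutrophils through the receptor Cxcr2, Ccl2 and Ccl7 attract monocytes through Ccr2, Ccl20 attracts Ccr6-bearing lymphocytes and dendritic cells, Cxcl10 attracts activated T cells through Cxcr3, and Cxcl12 guides cells that carry Cxcr4. Csf1 keeps macrophages alive, and Lif signals through Lifr and Il6st. Many genes of this kind are classical targets of the transcription factor NF-κB. SFN activates Nrf2, the master regulator of antioxidant genes, which is encoded by Nfe2l2.

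To show what lies in front of the members' start sites, the 250 bases upstream were taken from RefSeq (build GRCm38.p6), which held a window for 8 of the 10 members; Ccl2 and Ccl7 were not in the table. The windows of Cxcl1, Cxcl2 and Cxcl10 and the first window of Il1rl1 are printed in full. The second window of Il1rl1 is not printed. Shorter stretches are printed for Ccl20, Csf1 and Lif. They read 5′ to 3′ along each gene, with matches to the κB motif of NF-κB, on either strand, in capitals.
Cxcl1, chr5:90890995-90891244, plus strand: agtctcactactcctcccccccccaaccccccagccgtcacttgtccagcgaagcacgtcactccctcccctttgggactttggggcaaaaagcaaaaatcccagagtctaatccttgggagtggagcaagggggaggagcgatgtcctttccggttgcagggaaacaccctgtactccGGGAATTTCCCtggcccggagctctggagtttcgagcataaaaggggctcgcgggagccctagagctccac
Cxcl2, chr5:90903649-90903898, plus strand: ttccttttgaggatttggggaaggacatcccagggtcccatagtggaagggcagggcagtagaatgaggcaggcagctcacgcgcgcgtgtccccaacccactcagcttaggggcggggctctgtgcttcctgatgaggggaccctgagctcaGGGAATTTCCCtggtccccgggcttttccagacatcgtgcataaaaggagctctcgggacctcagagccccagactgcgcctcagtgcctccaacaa
Cxcl10, chr5:92348890-92349139, minus strand: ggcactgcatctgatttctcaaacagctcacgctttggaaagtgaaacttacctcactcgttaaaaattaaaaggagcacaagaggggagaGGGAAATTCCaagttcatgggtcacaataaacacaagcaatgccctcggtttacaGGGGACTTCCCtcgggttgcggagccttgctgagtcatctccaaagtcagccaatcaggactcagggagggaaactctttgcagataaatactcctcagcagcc
Il1rl1, chr1:40429320-40429569, plus strand: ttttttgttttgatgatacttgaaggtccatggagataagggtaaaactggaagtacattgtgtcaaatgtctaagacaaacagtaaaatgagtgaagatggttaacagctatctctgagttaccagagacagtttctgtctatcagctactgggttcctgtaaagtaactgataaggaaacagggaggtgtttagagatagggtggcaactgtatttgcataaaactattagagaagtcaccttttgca
Ccl20: aatcaatgggGGAAAACCCCgggtgagaac
Csf1: gggccttgagGGAAAGTCCCtaggggccag
Lif: atcaagtacaGGGACGCCCCctccccacac

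The capitals of Cxcl1 and Cxcl2 were the same run of letters, which begins 71 bases before the start of Cxcl1 and 97 bases before that of Cxcl2 and holds overlapping matches on both strands. Cxcl10 held matches that begin 159, 104 and 103 bases before its start, the last 2 of which overlap. The matches of Ccl20, Csf1 and Lif begin 80, 154 and 178 bases upstream, while neither window of Il1rl1, nor that of Cxcl12, held a κB match. In all, 6 of the 8 members with a window had a match in any of their windows. Of the 32851 single windows in the table, 7.25% had one. Members are counted by gene and the shares by window, here and below. The AP-1 motif TGANTCA was found in 2 members, Cxcl10 and Lif (6.75% of all windows). The antioxidant response element core TGACNNNGC was found in Cxcl10, Lif and the second window of Il1rl1 (10.2% of all windows), and in Cxcl10 it overlapped the AP-1 match. The tonicity element of NFAT5 was found in Cxcl2 alone (4.31% of all windows). The motifs were picked after the members' values had been seen, and a match is a description of letters and not evidence that a factor binds there.

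The libraries held 34484296 to 50774875 counts. Nfe2l2 was at 11 to 11.6 CPM (read counts scaled to a common library size by TMM normalization) in the 4 Nrf2-/- libraries and at 64.0 to 149 CPM in the 12 WT libraries, which is the direction the labels give. Between the libraries of a group, the biological coefficient of variation was 0.346 for Nrf2-/- cells at 1 h of stress and 0.0395 to 0.128 in the other 7 groups. These Nrf2-/- 1 h libraries stand apart and also widen the error of Cxcl1 and Cxcl2 in the shared fit, so that member and list values in which they decide are given with and without each of them. Of 16 collecting duct and epithelial markers, 12 reached 1 CPM in each WT group and 11 in each Nrf2-/- group. The water channel gene Aqp4 had at most 3 counts a library in all 8 groups, and Aqp2 in 6 of them. The labels number the replicates but do not say how the cultures were kept apart, and p-values measure only the spread between these libraries. An exact permutation test of 2 against 2 libraries cannot give a two-sided p below 0.333, so that all tests come from the fit across genes.

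**Figure D1:**
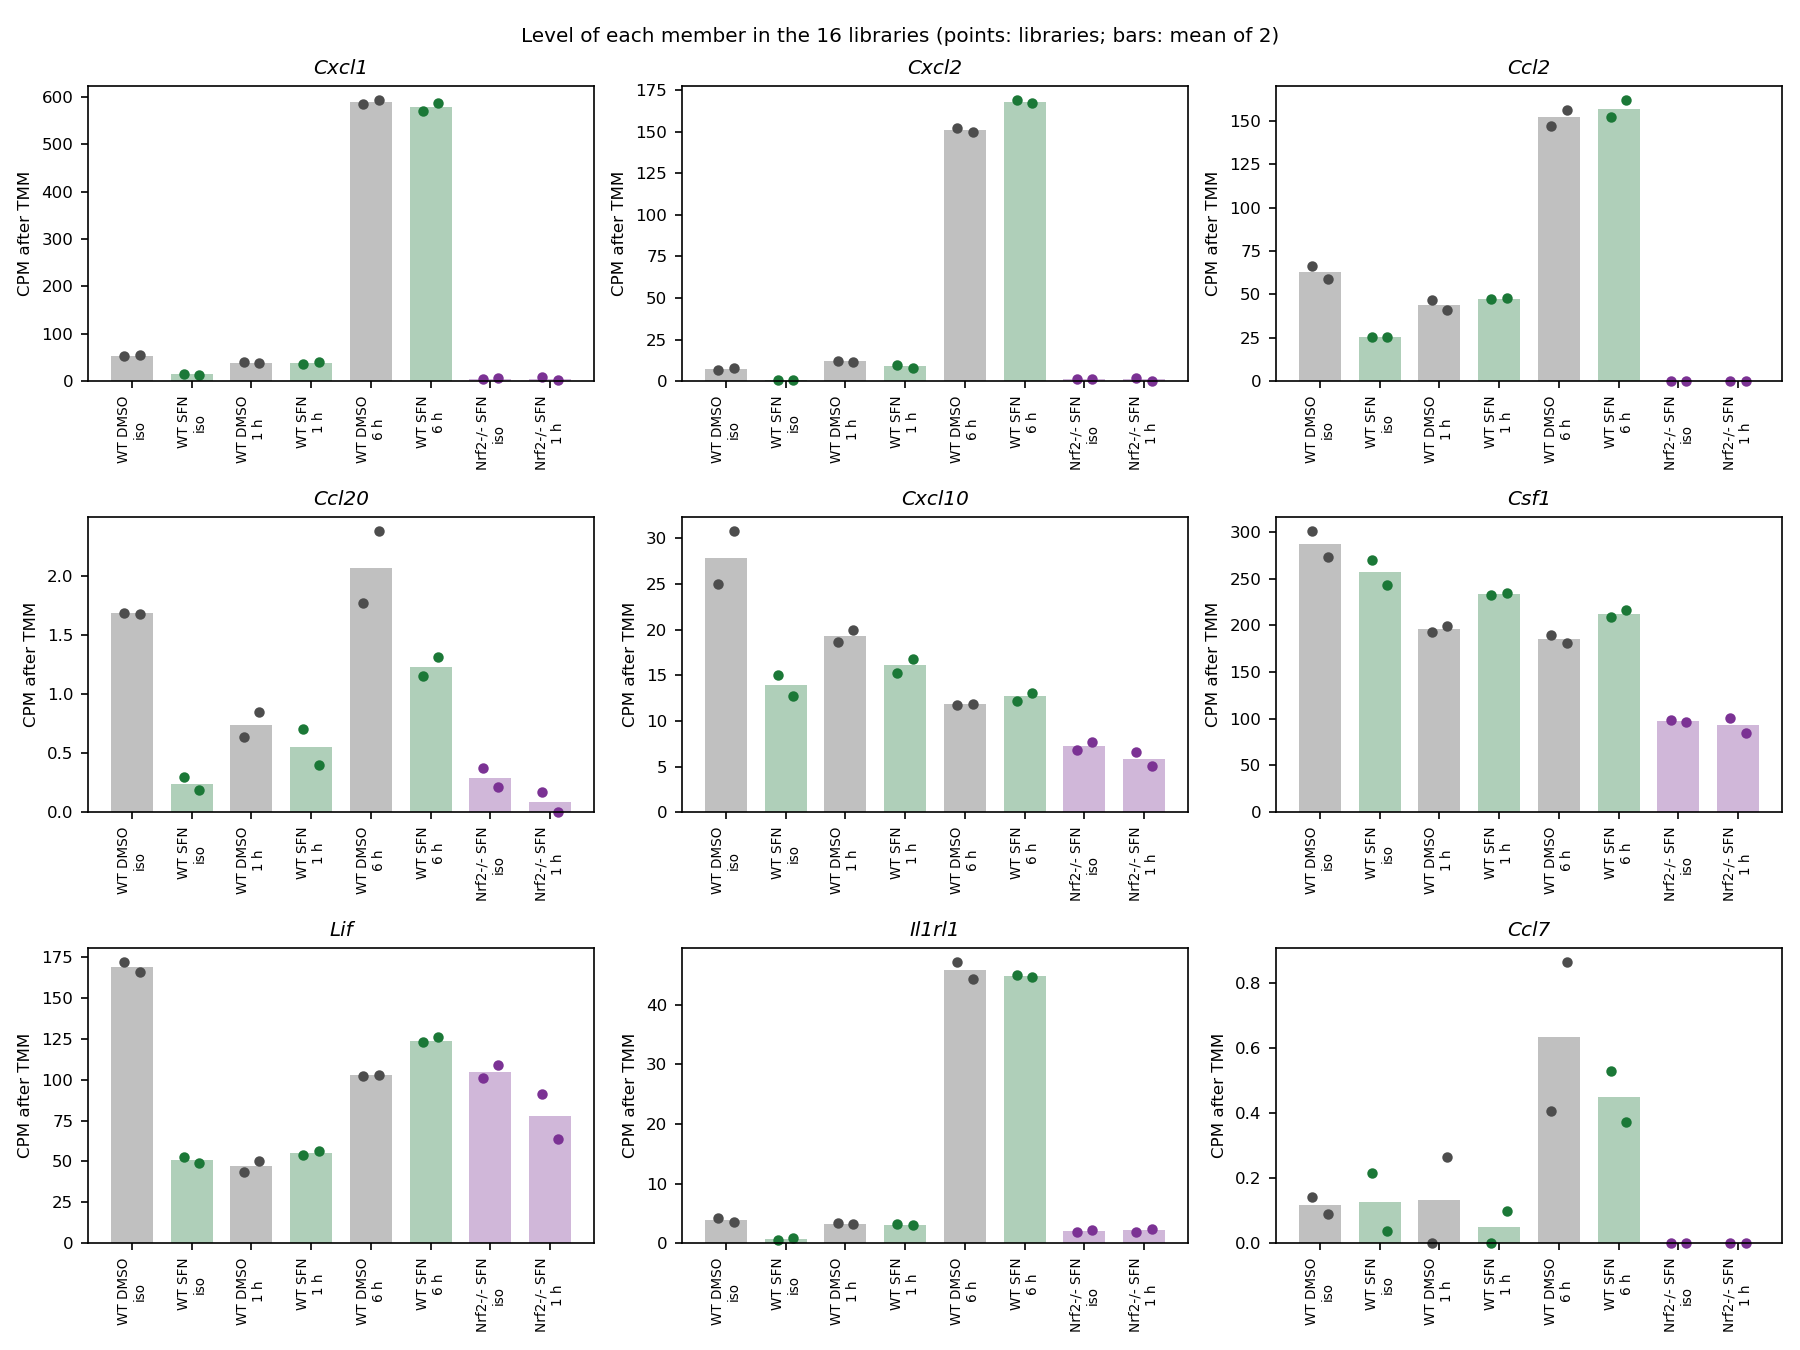
Level of 9 members in CPM (vertical axes, linear and starting at 0) in the 8 groups; points are libraries and bars are means of 2. Cxcl1, Cxcl2, Ccl2 and Il1rl1 stand highest in both 6 h groups, Cxcl10, Csf1 and Lif stand highest in isosmotic DMSO-treated cells, and Ccl2 and Ccl7 lie at 0 in all 4 Nrf2-/- libraries.

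Per kilobase of exonic sequence, which allows genes of different length to be compared, Ccl2 and Csf1 led in isosmotic DMSO-treated WT cells with 55.2 ± 4.74 and 54.4 ± 3.78 CPM per kb (mean ± SD, n = 2). The libraries of these genes overlapped. Lif (38.9 ± 1.06), Cxcl1 (28.6 ± 0.563), Cxcl10 (12.4 ± 1.80) and Cxcl2 (3.56 ± 0.447) followed, each with both libraries above both of the next, and Ccl20, Il1rl1 and Ccl7 were at 1.19, 0.562 and 0.144 CPM per kb. After 6 h of stress with DMSO the order was a different one. Cxcl1 led with 314 ± 3.01 CPM per kb, followed by Ccl2 (133 ± 5.43) and Cxcl2 (73.0 ± 0.766), and only then by Csf1 (35.1 ± 1.28) and Lif (23.6 ± 0.201), again without overlap between neighbours. In isosmotic Nrf2-/- cells Lif (24.1 ± 1.30) and Csf1 (18.5 ± 0.327) led, and Cxcl10 and Cxcl1 overlapped at 3.20 ± 0.278 and 2.68 ± 0.611 CPM per kb.

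Several members changed between 1 h and 6 h of stress. In DMSO-treated WT cells, 6 of the 9 members tested rose in that interval (Cxcl1, Cxcl2, Ccl2, Ccl20, Lif and Il1rl1) and 1, Cxcl10, fell, at an adjusted p under 0.05 in edgeR's quasi-likelihood test, while 20.4% of all genes tested rose and 22% fell. With SFN, 5 members rose (Cxcl1, Cxcl2, Ccl2, Lif and Il1rl1) and 0 fell, where 20.9% of all genes rose and 21.7% fell (42.6% in all, and 42.4% with DMSO). With so many genes moving, a call alone says little about a member, and the sizes below are the more useful reading. The comparisons with DMSO and with SFN do not share libraries.

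Cxcl1 was at 41.3 and 37.3 CPM at 1 h and at 585 and 593 CPM at 6 h with DMSO. With SFN it was at 36.4 and 39.8 CPM at 1 h and at 570 and 586 CPM at 6 h. Every 6 h library thus lay far above every 1 h library, and both pretreatments ended at nearly the same level. The change was 15-fold with DMSO (log2 fold change 3.91, standard error 0.42, adjusted p = 2.20e-05) and 15.2-fold with SFN (adjusted p = 2.13e-05). Its neighbour Cxcl2 went from 12.4 and 11.4 CPM to 152 and 150 CPM with DMSO and from 10.0 and 8 CPM to 169 and 167 CPM with SFN. The libraries of Cxcl2 did not overlap either, and its change was 12.6-fold with DMSO (log2 fold change 3.66, standard error 0.38, adjusted p = 9.98e-06) and 18.7-fold with SFN (adjusted p = 4.06e-06). Both genes encode neutrophil attractants, and the 6 h groups hold the highest level of each in the series.

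Ccl2, the main monocyte attractant, was at 46.9 and 40.9 CPM at 1 h and at 147 and 156 CPM at 6 h with DMSO, and at 47.5 and 47.7 CPM and then 152 and 162 CPM with SFN. It rose 3.45-fold (adjusted p = 6.95e-08) and 3.30-fold (adjusted p = 9.08e-08), with no overlap, by less than the neutrophil attractants. Ccl7, which lies 10.1 kb from Ccl2 and acts on the same receptor, was barely detected. It had 0 and 10 counts at 1 h and 14 and 28 counts at 6 h with DMSO, and 0 and 4 and then 18 and 12 counts with SFN, and neither difference passed the test over all libraries (adjusted p = 0.183 and 0.108). Fitted to the compared libraries alone, both passed (adjusted p = 0.0231 and 0.0157), and 28 counts was its highest value in any library. Ccl7 passed the filter on low counts through its 6 h libraries, however, so that none of these tests is support for a rise. Ccl20 was low as well, with 28 and 32 counts at 1 h and 61 and 77 counts at 6 h with DMSO. Its rise passed the test with DMSO (log2 fold change 1.48, standard error 0.53, adjusted p = 0.0359) but the call was lost when any 1 of the 4 libraries was left out. With SFN, Ccl20 had 27 and 16 counts at 1 h and 39 and 42 counts at 6 h (adjusted p = 0.111), and without both Nrf2-/- 1 h libraries that difference passed (adjusted p = 0.0385).

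Il1rl1, the IL-33 receptor, kept company with the neutrophil attractants. It was at 3.35 and 3.18 CPM at 1 h and 47.2 and 44.3 CPM at 6 h with DMSO, and at 3.16 and 2.97 CPM and then 45.0 and 44.7 CPM with SFN. The groups lay far apart, and the rise was 14.0-fold (log2 fold change 3.81, standard error 0.18, adjusted p = 1.25e-09) and 14.6-fold (adjusted p = 1.13e-09). Lif was at 43.7 and 50.4 CPM at 1 h and at 102 and 103 CPM at 6 h with DMSO, and at 54.0 and 56.4 CPM and then 123 and 126 CPM with SFN. It rose 2.19-fold and 2.25-fold (adjusted p = 1.14e-05 and 8.06e-06), although with DMSO its 6 h level was still below that of unstressed cells.

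Cxcl10 moved the other way. It was at 18.6 and 20 CPM at 1 h and 11.7 and 11.9 CPM at 6 h with DMSO, which fell by 0.71 on the log2 scale (adjusted p = 0.00192). With SFN it was at 15.3 and 16.8 CPM and then at 12.2 and 13.1 CPM, a log2 difference of -0.34 that did not pass the test (adjusted p = 0.0909) but did without both Nrf2-/- 1 h libraries (adjusted p = 0.021). Csf1, the most abundant member by counts before stress, was at 193 and 199 CPM at 1 h and 190 and 181 CPM at 6 h with DMSO, and at 232 and 235 CPM and then 209 and 216 CPM with SFN. Its differences of -0.08 and -0.14 on the log2 scale did not pass the test (95% confidence intervals -0.29 to 0.14 and -0.35 to 0.08). Cxcl12 had 0 counts in 15 libraries and 4 counts in 1 SFN-treated library at 6 h.

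Against unstressed cells rather than against 1 h, 2 of the 7 members with a test were higher at 6 h with DMSO (Cxcl1 and Ccl2) and 3 were lower (Cxcl10, Csf1 and Lif), beside 23.9% and 22% of all genes. Cxcl1 rose 11-fold (adjusted p = 4.51e-05) and Ccl2 2.41-fold (adjusted p = 1.14e-06). Lif fell by 0.72, Csf1 by 0.63 and Cxcl10 by 1.24 on the log2 scale (adjusted p = 0.000515, 0.000139 and 1.61e-05). With SFN, 4 of 7 were higher (Cxcl1, Ccl2, Ccl20 and Lif) and 1, Csf1, was lower, beside 24.7% and 22.9% of all genes (47.6% in all, and 45.9% with DMSO). Lif thus ended below its unstressed level with DMSO and 2.44-fold above it with SFN (adjusted p = 3.11e-06), its 6 h levels being close and its unstressed levels far apart. The call for Csf1 with SFN (log2 fold change -0.27, adjusted p = 0.0371) was lost with RLE size factors, with DESeq2 (adjusted p = 0.113 and 0.0723), under both other filters, and without either 6 h library or isosmotic replicate 1. That for Ccl20 was lost without isosmotic replicate 2 (adjusted p = 0.056). The isosmotic SFN group is part of the contrast that chose Cxcl2 and Il1rl1.

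Genes of other cell types also moved at 6 h. The summed level of 9 leukocyte markers was 27.1 to 29.5 CPM in the 6 h libraries and 6.30 to 10.6 CPM in the other WT libraries, and 5 of the 9 reached 1 CPM at 6 h against 2 before. Ptprc, which encodes the leukocyte antigen CD45, had 132 to 196 counts and Cd79a of B cells 288 to 339 counts at 6 h. Itgam of myeloid cells had 74 to 91 counts at 6 h and 0 to 6 counts in every other library, and Adgre1 of macrophages 6 to 12 counts and 0 in every other library. Cd3e of T cells had 0 counts and Lyz2 of myeloid cells 0 to 5 counts at 6 h. The 4 endothelial markers summed to 4.52 to 5.79 CPM at 6 h and to 0.0476 to 0.742 CPM in the other WT libraries. The 5 fibroblast markers summed to 5.08 to 7.47 CPM and to 2.43 to 5.08 CPM, and the 16 epithelial markers to 5180 to 5570 CPM and to 2470 to 3810 CPM. The part of these shifts in the members' rise was not tested. In bulk RNA, a change in how many cells express a gene and a change in RNA per cell cannot be told apart.

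Cxcl1 (chr5:90891241-90893115) and Cxcl2 (chr5:90903871-90905938) lie at the end of a run of CXC chemokine genes, and the genes of that run did not move alike. From 1 h to 6 h of stress with DMSO, Cxcl5, a neutrophil attractant 131.9 kb before Cxcl1, went from 162 and 95 counts to 3792 and 3766 counts (log2 fold change 5.18, standard error 0.18, adjusted p = 5.54e-10). Cxcl3, 105.1 kb before, went from 11 and 0 to 219 and 243 counts. It passed the filter on low counts through the 6 h groups, so that its rise is given as a description with no test. Ppbp lies between Cxcl5 and Cxcl3, 122.7 kb before Cxcl1. It went from 3318 and 2677 counts only to 3765 and 3483 counts (log2 fold change 0.57, standard error 0.12, adjusted p = 0.00152). Mthfd2l, a folate enzyme gene on the far side of Cxcl2, had a similarly small log2 fold change of 0.65 (adjusted p = 0.00106). The platelet factor gene Pf4 and Cxcl15 had at most 6 counts in these WT libraries at either pretreatment.

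Il1rl1 (chr1:40429570-40465415) lies among genes of the same receptor family. Il18r1 begins 136 bp after its end and had 476 and 345 counts at 1 h and 424 and 447 counts at 6 h with DMSO (log2 fold change 0.39, standard error 0.16, adjusted p = 0.0574). Il18rap, the next gene and a co-receptor for IL-18, went from 119 and 100 counts to 1235 and 1194 counts (log2 fold change 3.76, standard error 0.24, adjusted p = 2.65e-08). A strongly induced gene thus lay on each side of a gene that did not pass the test with DMSO, and with SFN the values were 3.87 for Il1rl1, 0.57 for Il18r1 (adjusted p = 0.00851) and 3.89 for Il18rap. Whether strand was used in counting is not given in the sources used here.

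**Figure D2:**
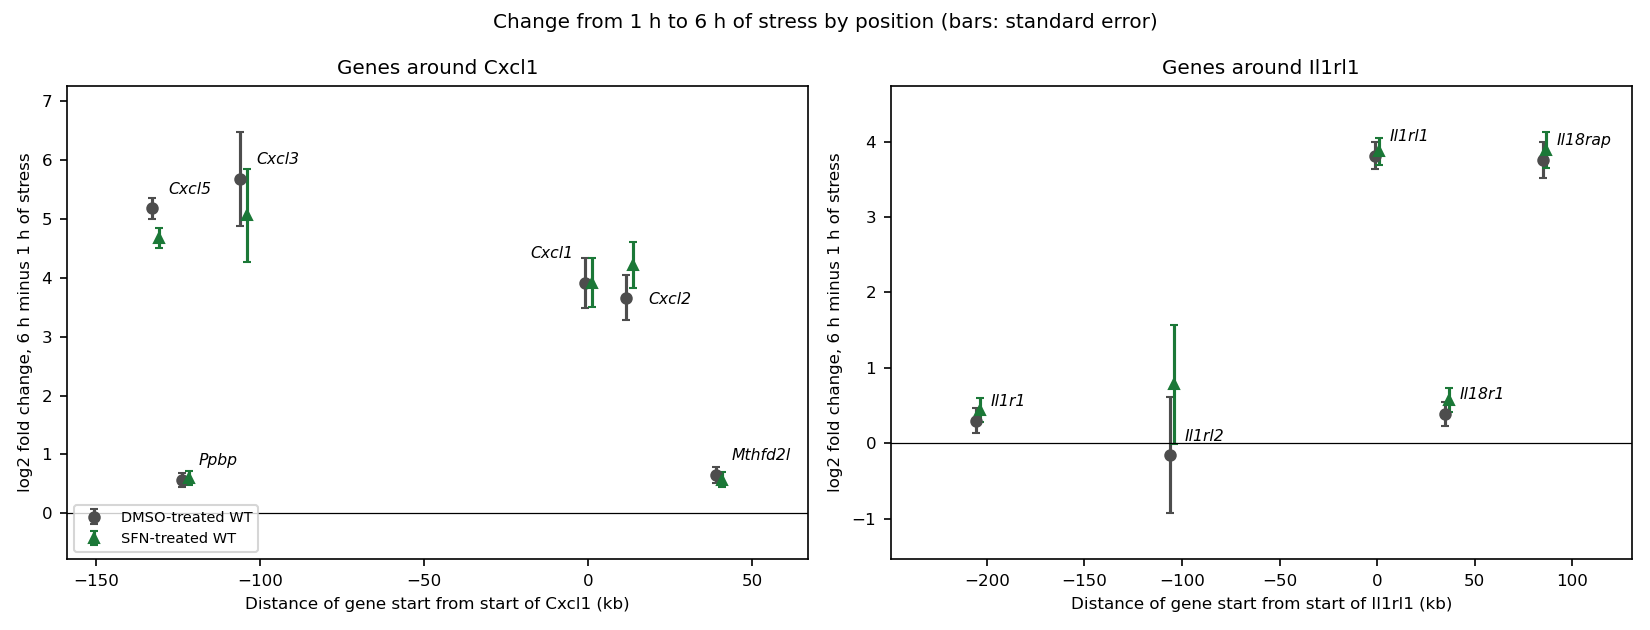
Log2 fold change from 1 h to 6 h of stress (vertical axes; bars, standard error) against the distance in kb of each gene's start from that of Cxcl1 (left) or Il1rl1 (right), in DMSO-treated (circles) and SFN-treated (triangles) WT cells. Cxcl5, Cxcl3, Cxcl1 and Cxcl2 lie above 3 and Ppbp and Mthfd2l below 1, while Il1rl1 and Il18rap lie near 4 and Il18r1, between them, below 1. Cxcl3 passed the filter on low counts through the 6 h groups, and its value is a description.

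After 1 h of stress the members had mostly declined or held. In DMSO-treated WT cells, 4 of the 7 members with a test fell (Cxcl10, Ccl2, Csf1 and Lif) and 0 rose, where 4.11% of all genes fell and 7.10% rose (11.2% in all). Lif had the largest difference, from 172 and 166 CPM in isosmotic cells to 43.7 and 50.4 CPM, a 3.60-fold fall (log2 fold change -1.85, standard error 0.14, adjusted p = 1.40e-06). Csf1 went from 301 and 273 CPM to 193 and 199 CPM (1.47-fold, adjusted p = 0.00259) and Ccl2 from 66.6 and 59.0 CPM to 46.9 and 40.9 CPM (1.43-fold, adjusted p = 0.00773). Cxcl10 went from 25 and 30.8 CPM to 18.6 and 20 CPM (1.45-fold, adjusted p = 0.036). None of these groups overlapped. The call for Ccl2 was lost without 1 h replicate 2 or without isosmotic replicate 1, and that for Cxcl10 without either 1 h library or isosmotic replicate 2 and under both other filters, the adjusted p of their alternatives reaching 0.106 and 0.346.

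Cxcl1 was at 52.9 and 54.4 CPM in isosmotic DMSO-treated cells and at 41.3 and 37.3 CPM at 1 h, a log2 difference of -0.45 (standard error 0.38) with an adjusted p of 0.548. The libraries did not overlap, and without both Nrf2-/- 1 h libraries the same difference passed the test (adjusted p = 0.000909). Ccl20 had 71 and 76 counts before and 28 and 32 counts after 1 h (adjusted p = 0.187, and 0.0467 without those libraries). Cxcl2 was at 6.72 and 8.02 CPM and then 12.4 and 11.4 CPM, and Il1rl1 at 4.17 and 3.58 CPM and then 3.35 and 3.18 CPM. Cxcl2 was therefore the only member whose 1 h libraries both lay above both isosmotic DMSO libraries, a description that carries no test.

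SFN-treated WT cells began from lower levels. At 1 h, 1 of 7 members with a test had risen, Ccl2, where 5.94% of all genes rose and 3.58% fell (9.52% in all). Ccl2 went from 25.5 CPM in both isosmotic libraries to 47.5 and 47.7 CPM (1.87-fold, adjusted p = 0.000229). Cxcl1 went from 16.1 and 13.2 CPM to 36.4 and 39.8 CPM, a log2 difference of 1.39 (standard error 0.39) that lay at the edge of the threshold (adjusted p = 0.0503). It passed with RLE size factors and DESeq2 (adjusted p = 0.0334 and 0.0214) and without both Nrf2-/- 1 h libraries (adjusted p = 3.55e-10). Lif was at 52.6 and 49.1 CPM before and 54.0 and 56.4 CPM after 1 h (95% confidence interval of the log2 difference -0.17 to 0.41), so that the fall seen with DMSO had no counterpart of that size. Cxcl2 was at 0.804 and 0.575 CPM and then 10.0 and 8 CPM, and Il1rl1 at 0.590 and 0.871 CPM and then 3.16 and 2.97 CPM, both without overlap and, since these genes were chosen on the isosmotic groups, without a test.

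SFN against DMSO was compared at each time. In isosmotic cells, the contrast that chose Cxcl2 and Il1rl1, 1.76% of all genes tested were called lower with SFN and 1.09% higher (2.84% in all). No call was made for a member here, so that these shares have no count of members beside them. The libraries of Ccl7 overlapped. The log2 differences ran from -3.44 for Cxcl2, -2.82 for Ccl20 and -2.37 for Il1rl1 through -1.88 for Cxcl1, -1.73 for Lif, -1.30 for Ccl2 and -1.01 for Cxcl10 to -0.16 for Csf1. Cxcl2 and Il1rl1 were picked for being lower here, so their place in this order is no result.

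Under stress no member passed the test. At 1 h, 0 of the 9 members tested differed between SFN and DMSO by edgeR's quasi-likelihood test, where 0.0923% of all genes were called and 669 genes had an unadjusted p under 0.05. At 6 h it was again 0 of 9, with 0.041% of all genes called and 718 with an unadjusted p under 0.05. DESeq2 likewise called 0 members at either time. The members' adjusted p was 1.00 throughout, and only Csf1 at 1 h had an unadjusted p under 0.05 (0.0238, log2 difference 0.25, higher with SFN in both libraries). The intervals tell how large an SFN difference under stress remains possible, given the spread between these libraries. For Ccl2 the 95% confidence interval of the log2 difference was -0.11 to 0.35 at 1 h and -0.18 to 0.28 at 6 h, for Lif -0.06 to 0.52 and -0.01 to 0.56, and for Il1rl1 -0.48 to 0.29 and -0.36 to 0.30. For Cxcl1 (-0.88 to 0.79 and -0.85 to 0.79) and Cxcl2 (-1.20 to 0.38 and -0.58 to 0.89) they were wide, and for Ccl20 (-1.62 to 0.78 and -1.86 to 0.36) wider still, its counts being low. Ccl20 had both SFN libraries below both DMSO libraries at 6 h, with 1.15 and 1.31 CPM against 1.77 and 2.38 CPM. At 1 h the same held for Cxcl2, Cxcl10 and Il1rl1, with 10.0 and 8 CPM against 12.4 and 11.4 CPM for Cxcl2 and 15.3 and 16.8 CPM against 18.6 and 20 CPM for Cxcl10. Both SFN libraries lay above both DMSO libraries for Cxcl2, Cxcl10, Csf1 and Lif at 6 h and for Ccl2, Csf1 and Lif at 1 h. How many of all genes were separated in either direction was not counted. With so small a share of all genes called, a count of 0 says little about the members.

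With only the 4 libraries of the groups compared, 2 members passed at 1 h, both higher with SFN. They were Csf1, at 232 and 235 CPM against 193 and 199 CPM (adjusted p = 4.33e-06), and Lif, at 54.0 and 56.4 CPM against 43.7 and 50.4 CPM (log2 difference 0.23, adjusted p = 0.0295). In that fit 809 genes were called, against 18 in the fit over all libraries. A test of whether the SFN effect differed between 6 h and 1 h called 0 of 9 members by edgeR and by DESeq2, where 0.0103% of all genes were called and 570 had an unadjusted p under 0.05. For Cxcl2 that difference was 0.56 on the log2 scale (standard error 0.49, adjusted p = 1.00), which passed in the fit to the compared libraries alone (adjusted p = 0.017).

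**Figure D3:**
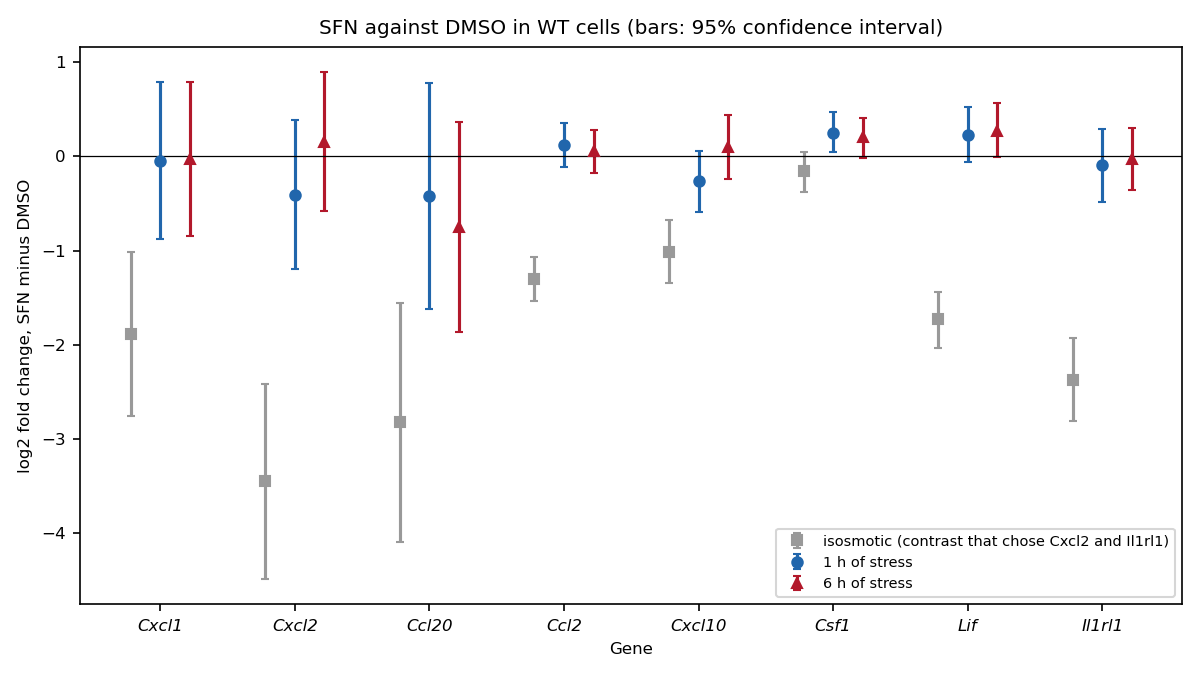
Log2 fold change of SFN against DMSO (vertical axis; bars, 95% confidence interval) for 8 members in WT cells without stress (squares, a description) and after 1 h (circles) or 6 h (triangles) of stress. The squares run from -3.44 for Cxcl2 to -0.16 for Csf1, in the contrast that chose Cxcl2 and Il1rl1. Under stress every interval but that of Csf1 at 1 h includes 0.

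In SFN-treated cells under stress for 1 h, 7 of the 9 members tested were lower in Nrf2-/- than in WT cells (Cxcl1, Cxcl2, Cxcl10, Ccl2, Ccl20, Csf1 and Il1rl1) and 1, Lif, was higher, where 16.2% of all genes were lower and 15.3% higher (31.5% in all). In isosmotic cells 4 of 7 members with a test were lower (Cxcl1, Cxcl10, Ccl2 and Csf1) and Lif was again higher, where 18.4% of all genes were lower and 15.7% higher (34.1% in all). Both comparisons set 1 line against the other, and they share no library. Ccl2 is included in both counts, but it passed the filter on low counts through the WT groups. Its calls are therefore no support for a direction.

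Ccl2 was the most extreme. It had 0 counts in all 4 Nrf2-/- libraries, against 950 and 1378 counts in isosmotic WT cells and 1819 and 1911 counts in WT cells at 1 h. Set against a floor of 3 counts a library, it was at least 307-fold lower without stress and at least 555-fold lower at 1 h. Since Ccl2 passed the filter on low counts through the WT groups, these values are a description. Ccl7 also had 0 counts in the 4 libraries, but only 0 to 8 counts in their WT counterparts, a difference that did not pass the test. The 14 other genes within 500 kb of Ccl2, Ccl7 among them, had 0 counts in every Nrf2-/- library, and their highest count in any WT library was 28, so that no well-expressed neighbour was at hand to compare with Ccl2. On chromosome 5, Cxcl5 likewise had 0 counts in all 4 Nrf2-/- libraries, against 95 and 142 counts in isosmotic and 148 and 166 counts in stressed WT cells, at least 31-fold and 46-fold lower. Ppbp was at 3.88 CPM against 78.4 CPM at 1 h (log2 fold change -4.33, standard error 0.15, adjusted p = 2.66e-11), while Mthfd2l next to Cxcl2 was slightly higher in Nrf2-/- cells (log2 fold change 0.42, adjusted p = 0.0244).

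Csf1 and Cxcl10 were lower by a steadier amount. Csf1 was at 99.1 and 96.6 CPM in isosmotic Nrf2-/- cells against 270 and 243 CPM in WT cells, and at 101 and 85.1 CPM against 232 and 235 CPM at 1 h. That is 2.62-fold and 2.51-fold lower (adjusted p = 9.28e-08 and 1.68e-07), and the log2 fold change at 1 h was -1.45 without Nrf2-/- 1 h replicate 1 and -1.21 without replicate 2, both past the threshold. Cxcl10 was at 6.77 and 7.66 CPM against 15 and 12.7 CPM without stress and at 6.54 and 5.10 CPM against 15.3 and 16.8 CPM at 1 h. It was 1.92-fold and 2.76-fold lower (adjusted p = 0.000327 and 7.09e-06), with log2 fold changes of -1.64 and -1.30 when either Nrf2-/- 1 h library was left out. In neither gene did the lines overlap.

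For Cxcl1 and Cxcl2 the Nrf2-/- 1 h libraries disagreed with each other. Cxcl1 was at 4.21 and 5.83 CPM in isosmotic Nrf2-/- cells and at 8.24 and 1.93 CPM at 1 h, against 16.1 and 13.2 CPM and 36.4 and 39.8 CPM in WT cells. Both Nrf2-/- libraries still lay below both WT libraries at each time, and Cxcl1 was 2.90-fold lower without stress (adjusted p = 0.0156) and 7.47-fold lower at 1 h (adjusted p = 0.000366). Without either isosmotic Nrf2-/- library, or without isosmotic WT replicate 1, the call without stress was lost (the adjusted p of its alternatives reached 0.119). At 1 h the log2 fold change was -4.29 without replicate 1 and -2.21 without replicate 2 (adjusted p = 4.74e-18 and 7.29e-13), but it did not pass in the fit to the 4 compared libraries (adjusted p = 0.0663). Cxcl2 was at 2.18 and 0.288 CPM in Nrf2-/- cells at 1 h, that is 77 and 10 counts, against 10.0 and 8 CPM in WT cells (7.25-fold lower, adjusted p = 0.000415, and 0.107 with the 4 compared libraries). Its log2 fold change there was -2.86, and it was -4.94 without Nrf2-/- replicate 1 and -2.04 without replicate 2 (adjusted p = 4.52e-15 and 5.61e-10). Without stress Cxcl2 was at 1.14 and 1.21 CPM in Nrf2-/- cells and 0.804 and 0.575 CPM in WT cells, and Il1rl1 at 1.85 and 2.18 CPM against 0.590 and 0.871 CPM, each higher in both Nrf2-/- libraries and, being the chosen genes, without a test.

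Ccl20 had 6 and 0 counts in Nrf2-/- cells at 1 h against 27 and 16 counts in WT cells (adjusted p = 0.0138), and the call was lost without Nrf2-/- replicate 2, without WT replicate 1 (adjusted p = 0.0917 and 0.106) and in the fit to the 4 compared libraries (adjusted p = 0.211). Without stress it had 13 and 8 counts against 11 and 10 counts. Il1rl1 at 1 h was at 1.81 and 2.45 CPM against 3.16 and 2.97 CPM, 1.44-fold lower with an adjusted p of 0.0474 that did not hold with RLE size factors, DESeq2 (adjusted p = 0.0767 and 0.0653), no filter, the 4 compared libraries (adjusted p = 0.311), or without Nrf2-/- replicate 1 (adjusted p = 0.277) or either WT library. With the replicate block it was 0.0583. Lif was the only member called higher than WT, at both times. It was at 101 and 109 CPM in isosmotic Nrf2-/- cells against 52.6 and 49.1 CPM in WT cells (2.06-fold higher, adjusted p = 2.87e-05) and at 91.4 and 63.8 CPM against 54.0 and 56.4 CPM at 1 h (1.41-fold higher, adjusted p = 0.012). The call at 1 h was lost without replicate 1 of either line and without WT replicate 2 (log2 fold change 0.22, adjusted p = 0.0699 without Nrf2-/- replicate 1), and in the fit to the 4 compared libraries (adjusted p = 0.216). The isosmotic Nrf2-/- level of Lif lay between those of WT cells with SFN and with DMSO.

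**Figure D4:**
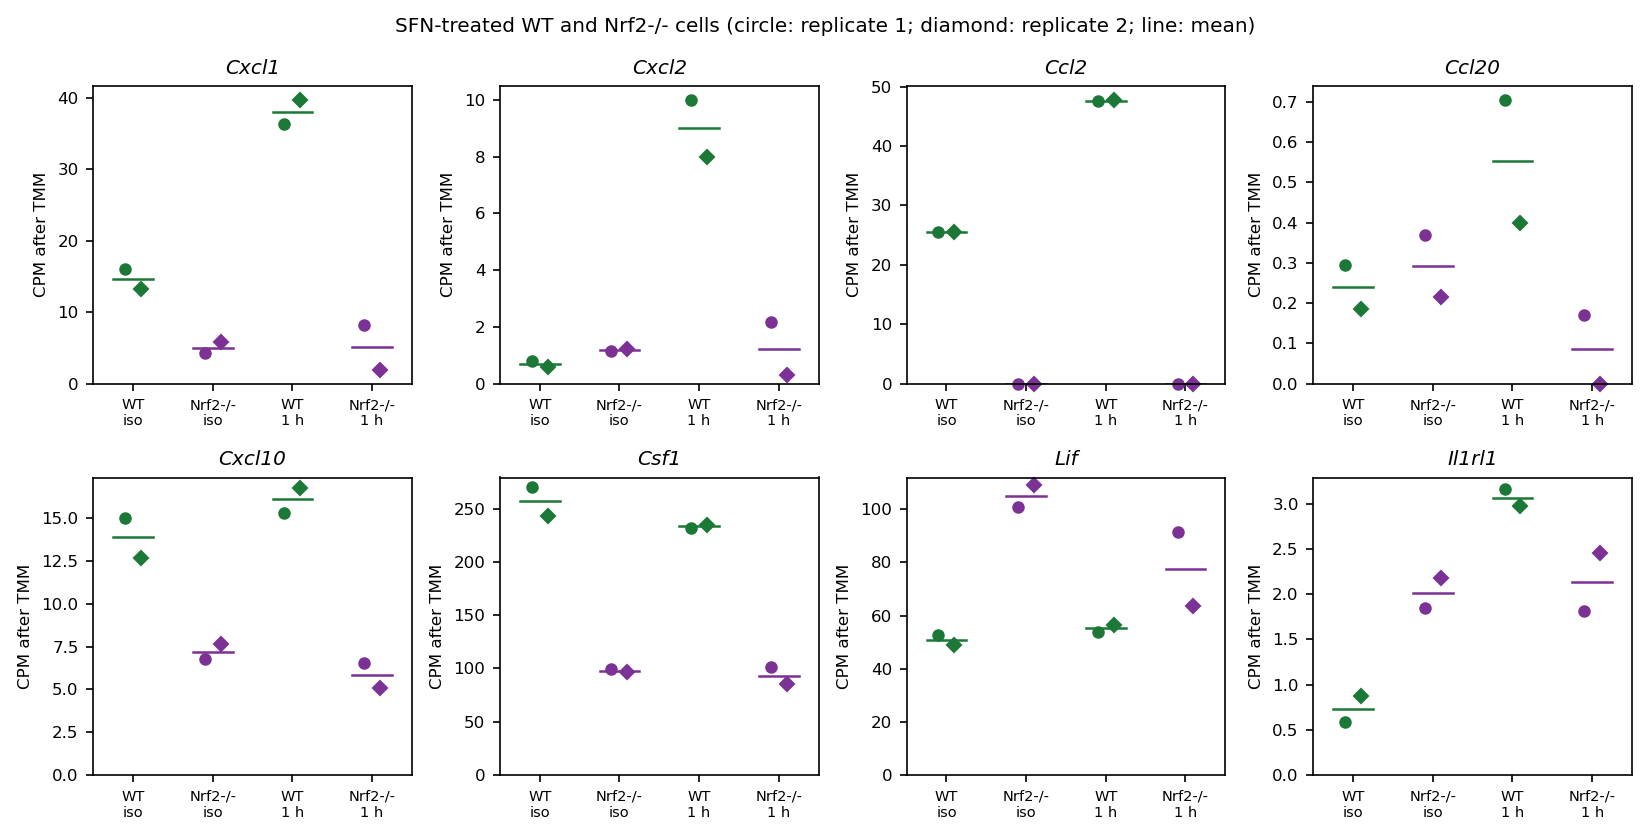
Level of 8 members in CPM (vertical axes, linear and starting at 0) in SFN-treated WT (green) and Nrf2-/- (purple) cells without stress and at 1 h; circles are replicate 1, diamonds replicate 2 and lines the mean. Ccl2 lies at 0 in the 4 Nrf2-/- libraries, Csf1 and Cxcl10 lie lower at both times, Lif lies higher, and the Nrf2-/- 1 h libraries of Cxcl1 and Cxcl2 lie far from each other.

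Within Nrf2-/- cells, 0 of 7 members with a test changed from isosmotic to 1 h of stress by edgeR's test, where 4.36% of all genes rose and 2.81% fell (7.17% in all) and 3987 genes had an unadjusted p under 0.05. DESeq2 called 1 member, Lif, as lower (adjusted p = 0.0245, against 0.0671 in edgeR). The result for Cxcl1 and Cxcl2 hung on single libraries. Without replicate 1 of the Nrf2-/- 1 h group they fell (log2 fold changes -1.39 and -2.02, adjusted p = 1.10e-05 and 0.000366), and without replicate 2 they rose (0.71 and 0.89, adjusted p = 0.00141 and 0.00819). With both libraries the log2 differences were 0.02 and 0.08, with 95% confidence intervals of -0.96 to 1.00 and -1.10 to 1.26. Whether the 1 h response differed between the lines could be tested for 5 members and was called for 0 by edgeR and by DESeq2 (0.123% of all genes were called, 0.0615% in each direction, and 1433 had an unadjusted p under 0.05). The log2 differences, Nrf2-/- minus WT, were -1.37 for Cxcl1, -0.52 for Cxcl10, -2.95 for Ccl20, -0.55 for Lif and 0.06 for Csf1 (adjusted p = 0.66, 0.633, 0.478, 0.478 and 1.00). Without Nrf2-/- 1 h replicate 1, Cxcl1, Cxcl10, Ccl20 and Lif passed (adjusted p = 2.32e-09, 0.0448, 0.00527 and 7.69e-05), and without replicate 2, Cxcl1 alone did (adjusted p = 0.0258).

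Other genes of the same pathways were read from lists, in the comparisons that did not choose the members. The counts cover only genes that passed the filter on low counts. Some passed only through the groups in which they are high. Examples are Cxcl3 and Ccl8 at 6 h, Ccr6 at 1 h, Ackr3 in Nrf2-/- cells, and Lifr and Bcl3 in WT cells. Counts, medians and the values of such genes are therefore descriptions and no support for a direction. The counts are to be read beside the shares of all genes called. These were 20.4% higher and 22% lower from 1 h to 6 h with DMSO, and 20.9% and 21.7% with SFN. At 1 h of stress with DMSO, 7.10% were higher and 4.11% lower than in isosmotic cells. In Nrf2-/- against WT cells, 15.3% were higher and 16.2% lower at 1 h, and 15.7% and 18.4% without stress. Of 31 other chemokines, 12 were tested. From 1 h to 6 h of stress with DMSO, 5 rose and 1 fell, with a median log2 fold change of 1.03 (0.45 with genes near 0 set at their bound) beside -0.001 over all genes tested. Cxcl3 and Cxcl5 rose most, and Ccl25, which attracts gut-homing T cells, went from 5.27 to 15.9 CPM (adjusted p = 6.27e-07), while Cx3cl1, a membrane-bound chemokine, went from 11.6 to 8.11 CPM (adjusted p = 0.0209). The median difference of SFN against DMSO was 0.05 at 1 h and -0.18 at 6 h. In Nrf2-/- cells at 1 h, 3 were lower and 1 higher (median -0.87, or -0.52 at bounds, beside -0.022), and Cxcl16, which acts on Cxcr6, was the higher one at 33.4 against 14.8 CPM (adjusted p = 3.44e-06).

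Of 42 other cytokines, 34 were tested, and from 1 h to 6 h with DMSO 19 rose and 3 fell (median log2 fold change 0.87 beside -0.001). Tgfb3 (6.68 to 1.72 CPM), Tnfsf12 (1.86 to 0.500 CPM) and Il34, another ligand of the Csf1 receptor (1.99 to 1.08 CPM), fell. At 1 h of stress with DMSO, 3 rose and 2 fell (median -0.06, beside 0.002). The gene of interleukin 6, Il6, had 0 counts in both isosmotic libraries and 45 and 37 counts at 1 h, and 10 and 12 counts at 6 h. Clcf1, which like Lif belongs to the interleukin 6 family, fell from 264 to 86.8 CPM (log2 fold change -1.60, standard error 0.21, adjusted p = 0.000199), the direction that Lif took in the same libraries. With SFN, 16 rose and 4 fell from 1 h to 6 h, among them Il15, which went from 0.333 to 5.35 CPM (adjusted p = 5.00e-06). In Nrf2-/- cells at 1 h, 8 were lower and 4 higher, Spp1, Tgfb3 and Il23a among the latter.

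Of 30 receptors and co-receptors, 16 were tested. From 1 h to 6 h with DMSO, 2 rose and 3 fell (median log2 fold change 0.06 beside -0.001), where 42.4% of all genes were called in either direction. The risers were Il18rap and Lifr, the receptor for Lif, which went from 4.08 to 19.0 CPM (log2 fold change 2.22, standard error 0.22, adjusted p = 1.62e-06), while Osmr, the receptor for oncostatin M, went from 11.3 to 2.53 CPM (adjusted p = 2.14e-07). Ccr6, the receptor for Ccl20, went from 1.24 to 0.212 CPM after having been at 0 counts in isosmotic DMSO-treated cells. It passed the filter on low counts through the 1 h groups, so that its fall is a description. In Nrf2-/- cells at 1 h, Lifr was at 0.0718 CPM against 3.42 CPM in WT cells, while its ligand Lif was higher. Lifr passed the filter on low counts through the WT groups, so that this difference between the lines is a description. Il1r1, the interleukin 1 receptor, was at 5.62 against 26.1 CPM (adjusted p = 2.39e-07). Ackr3, which takes up Cxcl12, was at 10.7 against 0.05 CPM, a description, since it passed the filter on low counts through the Nrf2-/- groups. In all, 6 were lower and 3 higher (median -0.58, or -0.39 at bounds, beside -0.022).

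All 25 genes of an NF-κB pathway and feedback list were tested. From 1 h to 6 h with DMSO, 9 rose and 10 fell (median log2 fold change -0.18 beside -0.001). Ier3, an early response gene, went from 207 to 1500 CPM (log2 fold change 2.86, standard error 0.27, adjusted p = 2.90e-06) and Nfkbiz, which encodes the nuclear inhibitor-like protein IκBζ, from 36.1 to 169 CPM (adjusted p = 3.02e-06). Nfkbie, an NF-κB inhibitor, went from 17.1 to 3.52 CPM and Tnip1 from 68.7 to 22.8 CPM (adjusted p = 4.92e-08 and 6.52e-08). The list thus moved in both directions, as all genes did (20.4% rose and 22% fell). Any part of these genes in the rise of Cxcl1 and Cxcl2 was not tested. At 1 h with DMSO, 8 fell and 0 rose (median -0.17 beside 0.002), among them Zfp36, which destabilises cytokine transcripts, from 25.6 to 8.35 CPM (adjusted p = 4.23e-06). The median difference of SFN against DMSO was -0.03 at 1 h and 0.03 at 6 h. In Nrf2-/- cells at 1 h, 12 were lower and 1, Vcam1, was higher (median -0.44 beside -0.022). The lower ones were led by Traf1 (0.568 against 17.7 CPM), Bcl3 (0.345 against 9.38 CPM) and Nfkbia (27.8 against 85.0 CPM). The adjusted p was 3.89e-08 for Traf1 and 5.37e-07 for Nfkbia. Bcl3 passed the filter on low counts through the WT groups, so that its value is a description. Without stress, 14 genes of the list were lower and 2 higher.

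The list values in Nrf2-/- cells at 1 h moved with the library used. Without Nrf2-/- 1 h replicate 1, 5 chemokines were lower and 1 higher (median -2.17), 12 cytokines lower and 3 higher (-1.11), 6 receptors lower and 3 higher (-0.48) and 13 NF-κB genes lower and 2 higher (-0.72), where 22.5% of all genes were lower and 19.4% higher. Without replicate 2 it was 3 chemokines lower and 1 higher (-0.43), 8 cytokines lower and 6 higher (-0.83), 5 receptors lower and 3 higher (-0.81) and 10 NF-κB genes lower and 0 higher (-0.35), where 14.7% of all genes were lower and 14.1% higher.

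Over the 8 group means of log2 CPM, genes most like each member among 14715 genes were listed as a description. With 8 points, most of which differ by the 6 h and Nrf2-/- groups, many genes reach such values. For Cxcl1 they were Arg2 (Pearson's r = 0.997) and Asxl1 (0.993), and for Cxcl2 Zfp36l1 (0.989), Gm12183 (0.986) and Ltbp2 (0.983). Ccl2 was most like Clu and Arhgap28 (both 0.998) and Egln3 (0.997), and Csf1 most like Wdr1 (0.991). Cxcl10 was most like Bmp2 (0.977) and Cldn3 (0.975), and Lif most like Bhlhe40 (0.977) and Trib1 (0.961). Ccl20, at low counts, was most like Tbca (0.977), Ccl7 was most like Tslp (0.995), and Il1rl1 most like Gm31718, Cdo1 and Bcar3 (each 0.990). No member appeared among the 3 genes most like another member.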

How the data were processed

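Total RNA of mIMCD3 cells was sequenced in 16 libraries. The deposited values are whole-number read counts per gene symbol that the authors made, unnormalized, on mouse build mm10: their methods name Hisat2, Samtools and FeatureCounts, and the submitters' processing notes list Bowtie2 in place of Hisat2. Lines with neither gene name nor count, 2 in 1 library and 3 in another, were left out. Groups came from the labels. Totals were 34484296 to 50774875 counts, and 58.0 to 68.5% of counts from 1 to 10 were even, so that counts may not be independent fragments and floors (3 counts a library) cover counting error only.

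All libraries entered 1 edgeR 4.0.16 quasi-likelihood fit (R 4.3.3, robust, TMM factors, filterByExpr, 1 coefficient a group), with Benjamini-Hochberg adjustment over 19509 genes and a threshold of 0.05. The fit was tested on simulated data. Alternatives were RLE size factors, no filter, a filter of 10 counts in every library, DESeq2 1.42.0, the 12 WT libraries, the compared libraries alone, a replicate block and leaving out each library. Leaving out both Nrf2-/- 1 h libraries was added after the data were seen. Members and lists were chosen with earlier results of these data known, and no result here is independent of that choice. All members were named, and of each list at most 3 genes a direction, those with the largest change among called genes whose libraries did not overlap. Replicate numbers did not pair the libraries (r = -0.0794 to 0.123 over 28 pairs of groups, 1 of them over 0.1). Levels per kb used exonic length. Some genes that these rules name are not reported here.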

Additional observations from a re-analysis of the deposited data

Results flagged for a closer look

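The response to 1 h of stress had opposite directions in every library with SFN and with DMSO for the members named next. How many of all genes do so was not counted. The log2 change with SFN minus that with DMSO was 1.83 for Cxcl1 (1.39 against -0.45), 0.75 for Cxcl10 (0.21 against -0.53), 1.42 for Ccl2 (0.90 against -0.52), 2.40 for Ccl20 (1.22 against -1.19) and 1.96 for Lif (0.12 against -1.85). For Il1rl1, which was chosen on the isosmotic groups, it was 2.28 (2.03 against -0.25). After 6 h the same held for Lif, with a difference of 2.01 (1.29 against -0.72). These differences were not tested, since they contain the isosmotic SFN and DMSO libraries in which the choice of members was made. Each equals the SFN difference under stress minus the SFN difference in isosmotic cells. For Cxcl1 at 1 h these were -0.05 and -1.88 on the log2 scale, and for Il1rl1 -0.09 and -2.37.

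The response to 1 h of stress in SFN-treated cells was opposite in the lines for Cxcl10, by -0.52 (-0.31 in Nrf2-/- against 0.21 in WT cells, adjusted p = 0.633), and for Lif, by -0.55 (-0.44 against 0.12, adjusted p = 0.478). Neither passed the test of the difference over all libraries, and both passed without Nrf2-/- 1 h replicate 1 (adjusted p = 0.0448 and 7.69e-05). The difference of SFN against DMSO was opposite at 6 h and 1 h for Cxcl2, by 0.56 (0.15 against -0.41), and for Cxcl10, by 0.37 (0.10 against -0.26), with an adjusted p of 1.00 for each.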

How the results depend on the processing

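Of 1140 member values recomputed under an alternative, 1055 stayed on their side of the threshold, 26 of them with a change of sign in a value that was not called, 40 lost a call, 43 gained one and 2 reversed. The reversed values were the 1 h response of Nrf2-/- cells without replicate 1 of the stressed group, at -1.39 for Cxcl1 and -2.02 for Cxcl2, against 0.71 and 0.89 without replicate 2. The cause was not tested.

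Members called changed as follows. With the compared libraries alone, 2 were called for SFN at 1 h (0 over all libraries), 8 for 6 h against 1 h with SFN (5), 3 for Nrf2-/- against WT at 1 h (8) and 1 for the SFN effect at 6 h minus 1 h (0). For 1 h of stress with SFN, 2 were called in place of 1 with RLE size factors, no filter, DESeq2, the 12 WT libraries, the compared libraries and without both Nrf2-/- 1 h libraries. The 12 WT libraries called 8 for 6 h against 1 h with SFN. For 1 h of stress with DMSO, 6 were called with the 12 WT libraries, with the compared libraries and without both Nrf2-/- 1 h libraries (4). The filter of 10 counts left 2 there and 2 for 6 h against isosmotic with SFN (5), where fewer genes were tested. For 1 h of stress in Nrf2-/- cells, no filter and DESeq2 each called 1 (0), and for its difference from WT, no filter called 1 (0). Leaving out 1 library gave 2 to 3 for 1 h with DMSO, 5 to 7 for Nrf2-/- against WT at 1 h, 0 to 5 for 1 h in Nrf2-/- cells and 0 to 4 for its difference from WT, the highest without Nrf2-/- 1 h replicate 1.

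With a replicate block, Cxcl10 at 1 h with DMSO (adjusted p = 0.0502, 3 members called) and Il1rl1 in Nrf2-/- cells at 1 h (adjusted p = 0.0583, 7 called) lost their calls, and it changed no other call.

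Genes called over all tested ranged from 6 to 809 for SFN at 1 h (18 in the fit reported), 1 to 106 for SFN at 6 h (8), 1 to 78 for their difference (2), 654 to 4334 and 535 to 3466 for 1 h of stress with DMSO (2186) and SFN (1857), 1651 to 8917 for Nrf2-/- against WT at 1 h (6154), 7 to 5079 for 1 h in Nrf2-/- cells (1399) and 0 to 2072 for its difference from WT (24). Low counts limit Ccl7, Ccl20 and Cxcl12, and Ccl7 passed the filter on low counts through its 6 h libraries.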
